A study of Homo sapiens with 6 samples.

Results

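The IFITM genes IFITM1, IFITM2 and IFITM3 encode small membrane proteins that are induced by interferon and keep enveloped viruses from fusing with the membranes of the cell. IFITM1 is found mostly at the cell surface, while IFITM2 and IFITM3 are found mostly in endosomes and lysosomes. They belong to the CD225 family, named after IFITM1, and lie next to each other on the short arm of chromosome 11. Their promoters are known to carry the short motif that the transcription factors of the interferon response bind.

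All probe sets annotated to these 3 of 19777 measured genes were taken, 4 of the 54675 on the array. Of these, 3 have a single symbol (214022_s_at for IFITM1, 201315_x_at for IFITM2 and 212203_x_at for IFITM3), and 1 (201601_x_at) is shared by IFITM1 and IFITM2 and is shown apart. The suffix _x_at marks probe sets with probes that also match other transcripts. It stands on both IFITM2 probe sets and on that of IFITM3. A part of each of these signals may thus belong to another member or to a pseudogene. The IFITM1 probe set ends in _s_at, and whether its probes also match other transcripts was not checked here. The genes were chosen with their signals on these arrays known, so the comparison of both groups is given for them as a description, with no test.

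The study asked which genes respond when DNA methylation is lost in colon cancer cells. HT-29, a human colon adenocarcinoma cell line, was kept for 72 hours in serum-free medium. The medium held 10 µM 5-Aza (3 arrays) or its solvent, a mixture of water and acetate (3 control arrays). 5-Aza stands for 5-aza-deoxycytidine, a deoxycytidine analog that blocks DNA methyltransferases. Dose, time and medium are those of the study's methods. Whether each array had a culture of its own is not given in the sources used here, so errors and p-values cover the spread of these arrays and that spread may be technical.

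The values are linear signals, and the mean signal of each array without the lowest and highest 2% of probe sets was 500. TrpnX, a bacterial transcript that human cells lack, had highest signals of 22.6 to 42 on the 6 arrays, and signals under 42 are not told apart from background here. Of 9 measured colon epithelial markers, 8 had a mean signal above that level, with CDX1 under it. Of 9 measured leukocyte markers 4 were above it (CD3E, CD79A, LYZ and ITGAM), and the defining marker PTPRC was not. On the first principal component (23.0% of the variance) control replicate 2 lay at 149.9, far from the others (-79 to 56.5), so results are also given without it. ACTB signals from the 3′ probe set exceeded those from the 5′ probe set, a measure of RNA degradation, by 0.73 ± 0.086 on the treated and 0.54 ± 0.077 on the control arrays on the log2 scale (SD, n = 3 per group), and its part in the results was not tested.

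The promoters of IFITM1 and IFITM3 are shown because these members had a promoter in the RefSeq set used here. Both were searched for the motif of the interferon response. Each line runs from 100 bases before to 5 bases after the transcription start in RefSeq (GRCh38.p14), from chr11:313940-314044 on the plus strand for IFITM1 and from chr11:320856-320960 on the minus strand for IFITM3. Capitals mark the motif, 2 blocks of GAAA with any 2 bases between them, searched on both strands.
IFITM1: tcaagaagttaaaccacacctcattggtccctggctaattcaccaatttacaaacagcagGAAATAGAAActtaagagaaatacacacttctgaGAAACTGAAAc
IFITM3: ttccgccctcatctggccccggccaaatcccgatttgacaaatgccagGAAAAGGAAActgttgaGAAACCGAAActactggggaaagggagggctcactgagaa
Both promoters held 2 matches, which do not overlap each other. The matches of IFITM1 began 40 and 6 bases before the start, and those of IFITM3 began 52 and 35 bases before it. Of all 35116 promoters of 300 bases in the same table, 3.57% held at least 1 match and 0.259% at least 2. CpG sites, where DNA methylation could lie, were counted in the 300 bases around the start. These held 3 CpG sites for IFITM1 and 8 for IFITM3, where the median promoter held 14. The line printed for IFITM1 holds no CpG site, and that of IFITM3 only a part of its 8. As few CpG sites as in IFITM1 were found in 24.5% of all promoters, and as few as in IFITM3 in 41.6%. A motif match is a description of the sequence and does not show that a factor was bound in these cells. IFITM2 had no promoter in that set, so whether its promoter holds the motif was not examined.

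IFITM1 had the largest difference of the 3 genes. Its probe set (214022_s_at) had signals of 282.4, 271.7 and 338.7 in 5-Aza treated cells, against 130.8, 142.4 and 126 in control cells. All 3 treated arrays lay well above all control arrays, and the lowest treated signal stood far above the highest control signal. On the log2 scale the SD was 0.17 in 5-Aza treated and 0.090 in control cells (n = 3 arrays per group). The log2 fold change was 1.15 (SE 0.11), a 2.22-fold higher signal. Without control replicate 2 the log2 fold change was 1.20. RNA from whole cultures cannot tell a higher signal in every cell from a high signal in some of them.

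The probe set shared by IFITM1 and IFITM2 (201601_x_at) had signals of 227.6, 252.3 and 267.6 in 5-Aza treated cells, against 110.1, 120.5 and 185 in control cells. The groups did not overlap, but control replicate 3 lay nearer to the treated arrays than to the other controls. The log2 fold change was 0.88 (SE 0.24), 0.80 without control replicate 2 and 1.10 without control replicate 3. It thus had the direction of the IFITM1 probe set, with a wider spread between control arrays (SD 0.40 against 0.090 for IFITM1 alone on the log2 scale).

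IFITM3, the family member best known for holding back influenza virus, differed less. Its signals were 2835.8, 3013.7 and 2870.6 in 5-Aza treated cells, against 2410.8, 2542.9 and 2147.8 in control cells. The groups did not overlap, with control replicate 2 the closest to the treated arrays. The treated arrays averaged 2910 ± 94.3 and the control arrays 2370 ± 201 (SD, n = 3 per group), a log2 fold change of 0.30 (SE 0.077) and a 1.23-fold higher signal. Centring each array on its median lowered this to 0.11, and the value was 0.35 without control replicate 2.

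IFITM2, which restricts viruses from endosomes like IFITM3, had signals of 4005.3, 3877.8 and 4126.8 in 5-Aza treated cells, against 3858.8, 4514.7 and 4640 in control cells. Here the groups overlapped, since control replicate 1 had the lowest signal of all 6 arrays and the other controls had the highest. The log2 fold change was -0.11 (SE 0.087), with -0.080 without control replicate 2 and -0.30 after median centring. The treated arrays spread less than the controls, with an SD of 0.045 in 5-Aza treated and 0.14 in control cells on the log2 scale.

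**Figure D1:**
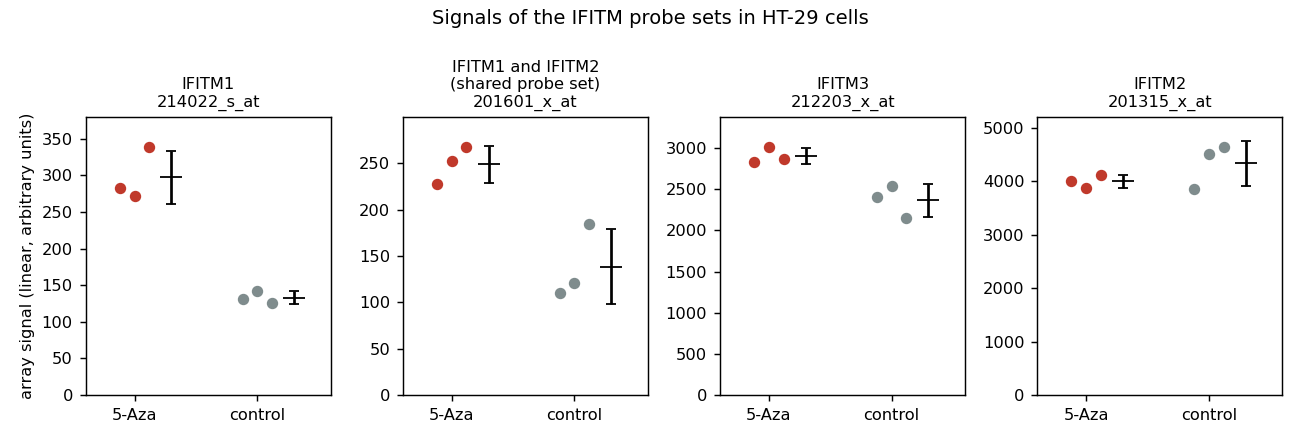
Linear array signals (arbitrary units) of the 4 IFITM probe sets in 5-Aza treated (red) and control (grey) HT-29 cells. Points are single arrays, black bars are means with SD (n = 3 per group), and each panel has its own scale. For IFITM1, the shared probe set and IFITM3 every red point lies above every grey one, and for IFITM2 the groups overlap.

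The log2 fold changes differed between the 3 genes. The log2 difference of IFITM2 and IFITM1 within an array, in which the scaling of the array largely cancels, ran from 3.60 to 3.83 on the 5-Aza treated arrays and from 4.87 to 5.19 on the control arrays. The fold change of IFITM2 was thus 0.417 times that of IFITM1 (a difference of -1.26 on the log2 scale, SE 0.12). For IFITM3 against IFITM1 the difference of the log2 fold changes was -0.85 (SE 0.12), with 3.08 to 3.47 on treated and 4.08 to 4.19 on control arrays. For IFITM2 against IFITM3 it was -0.41 (SE 0.14), with 0.36 to 0.52 on treated and 0.68 to 1.11 on control arrays. In none of these 3 pairs did the groups overlap. Between the shared probe set and the IFITM1 probe set the difference was -0.27 (SE 0.27) and the groups overlapped.

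Over all 54614 probe sets tested with limma, 0 (0%) passed an adjusted p under 0.05. Without adjustment, p was under 0.05 for 2873 higher (5.26%) and 1078 lower probe sets (1.97%). A SAM-type statistic gave 0 after adjustment as well. A p under 0.025 without adjustment was therefore used. The methods of the study name this level for these cells, do not say whether p was adjusted, and combine it with a ranking by fold change that was not applied here. At this level 1621 probe sets (2.97%) were higher and 575 (1.05%) lower (926 and 1451 after median centring, 1090 and 911 after quantile normalization). The groups did not overlap and treated cells were higher in 9.29% of all probe sets, as in 3 of the 4 IFITM probe sets, and treated cells were lower without overlap in 5.22%. Of the 13516 genes whose chosen probe set had a mean signal above 42, 314 (2.32%) had a log2 fold change as high as that of IFITM1 and 17.2% one as high as that of IFITM3. These counts place the members among all genes and are no test of them.

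The pathway in which the IFITM genes act was described with 40 other interferon-stimulated effectors, 1 probe set for each gene. Of these 40, 2 passed an unadjusted p under 0.025 as higher and 0 as lower (5% higher, where 3.01% of all genes were), 5 were higher and 0 lower with p under 0.05 before adjustment (5.33% and 1.89% of all genes), and 0 passed an adjusted p under 0.05 (limma). The 2 were SAMHD1 and OASL. Both calls ended with median centring, with the replicate number as a block (the replicate block) and with the SAM-type statistic. That of SAMHD1 also ended without any single array other than 5-Aza replicate 1, and that of OASL with quantile normalization and without any single array other than control replicate 2. SAMHD1, which breaks down the nucleotides that viruses need, had signals of 533.5, 710.4 and 645.4 in 5-Aza treated cells, against 431.7, 413.5 and 442.1 in control cells. The groups did not overlap, and the log2 fold change was 0.54 (SE 0.12, adjusted p = 0.604, limma). OASL, a relative of the oligoadenylate synthetases, had 359.3, 326.3 and 377.2 in 5-Aza treated cells, against 236.7, 274.8 and 221.6 in control cells. Its groups did not overlap either, and its log2 fold change was 0.54 (SE 0.11, adjusted p = 0.596, limma).

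In 10 of the 40 effectors (25.0%) the treated arrays were higher without overlap, which held for 9.92% of all genes. These were IFI6, IFIT3, ISG20, MX1, MX2, OAS2, OAS3, OASL, SAMHD1 and DTX3L. Whether their groups stay apart after median centring was not tested. The median log2 fold change of the effectors was 0.33, where that of all genes was 0.038. The effector median was 0.145 after median centring and 0.23 after quantile normalization, where that over all probe sets was -0.125 and -0.007. Control replicate 2 had the lowest signal of the 6 arrays for 27 of the 40 effectors. It also had the lowest median signal of the arrays (71.8), and the same count over all genes was not made. Without that array the median of the effectors was 0.18 (0.047 over all probe sets) and 1 effector passed the unadjusted threshold. IFITM1 went the other way there, since control replicate 2 had the highest of its control signals. Its part in the difference between effectors and all genes was not tested further. Among the 33 effectors with a mean signal above 42, 1 had a log2 fold change as high as that of IFITM1. This was MX2 (2.07, SE 0.88), a factor against retroviruses and herpesviruses. Its signals were 110.6, 83.6 and 91.7 in 5-Aza treated cells, against 19, 7.6 and 68.1 in control cells, so 2 of its 3 control signals were at background. IFI44L and HERC5 also had higher log2 fold changes than IFITM1, but with mean signals under 42. Several classical effectors had small differences, such as ISG15, a protein tag that is attached to viral and host proteins (0.10, SE 0.10), and ADAR, which edits double-stranded RNA (-0.079, SE 0.040). BST2, which tethers budding viruses, was at background on every array, with 7.8 to 16.7 over both groups.

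Signals of the interferon genes themselves were low. Of 12 measured ligands, 2 had a mean signal above 42. IFNB1 had 5.2, 2.8 and 4.7 in 5-Aza treated cells, against 3.2, 22 and 6.8 in control cells, all under 42. IFNA8 alone passed the unadjusted threshold as higher (1 of 12, 8.33%, where 3.01% of all genes were), with 23.2, 13.6 and 37.1 in 5-Aza treated cells, against 12.1, 2.4 and 2.4 in control cells. All of these signals were under 42, and its adjusted p was 0.604 (limma), so this call lies within the background. It ended with quantile normalization, median centring, the replicate block and trend and robust variance, and without 5-Aza replicate 1, 5-Aza replicate 3, control replicate 2 or control replicate 3. The median of the 12 ligands was -0.57, but -0.0050 without 5-Aza replicate 3 and -0.28 with a constant of 16. IFNL1, which acts on epithelia, had 63.2, 77.7 and 52.3 in 5-Aza treated cells, against 51.1, 73.3 and 98.1 in control cells, with overlapping groups. IFNB1, IFNL1, BST2, ISG15, ADAR, MX2, IFI44L, HERC5, IRF7, NLRP6, TMEM41B, CTSL and RAB7A were named after their values were seen.

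Of 19 measured genes for interferon receptors and their signalling, 1 passed the unadjusted threshold as higher (5.26%, where 3.01% of all genes were) and 0 as lower (0.915% of all genes). This was IFNGR1, the ligand-binding chain of the receptor for interferon gamma, with 3416.1, 3330.4 and 3442.7 in 5-Aza treated cells, against 2438.2, 2684.2 and 2506.8 in control cells. The groups lay clearly apart, and the log2 fold change was 0.42 (SE 0.044, adjusted p = 0.611, limma), which was 0.23 after median centring. The call ended with median centring, the replicate block and the SAM-type statistic, and without any single array. The median of the 19 genes was 0.11. It was -0.073 after median centring, which also moved the median over the whole array to -0.12, against 0.062 without centring.

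**Figure D2:**
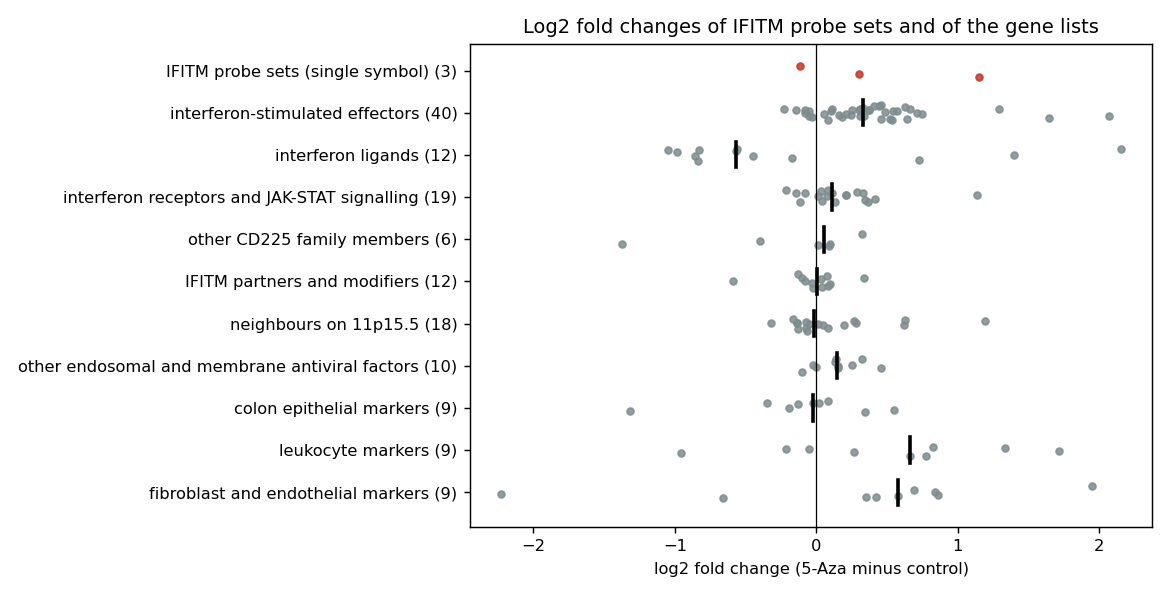
Log2 fold change (5-Aza minus control) on the x axis for the 3 IFITM probe sets with a single symbol (red) and for the measured genes of 10 lists (grey, number of genes in brackets), n = 3 arrays per group. Black bars are list medians. IFITM1 lies at 1.15, while the bar of the interferon-stimulated effectors lies at 0.33 and that of the ligands, mostly at background, lies at -0.57 (-0.0050 without 5-Aza replicate 3).

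The IFITM genes lie between PGGHG and IFITM5 on one side and B4GALNT4 on the other. Of 18 measured genes from the surrounding region, 0 passed an unadjusted p under 0.025 or under 0.05 in either direction (limma). In the higher direction, 0 had groups that did not overlap. Of all genes, 3.01% were higher and 0.915% lower at 0.025, and 5.33% and 1.89% at 0.05. Treated arrays were higher without overlap for 9.92% of all genes. With shares this small, counts of 0 among 18 genes do not set the region apart. Their median log2 fold change was -0.019. PGGHG, which splits glucose off collagen, had -0.14 (SE 0.18). B4GALNT4, a glycosyltransferase, had 0.28 with an SE of 1.59, as its signals ran from 3.8 to 89.4 over both groups. The largest changes among neighbours above background were those of CDHR5, a cadherin of the brush border (0.63, SE 0.50), and PHRF1 (-0.32, SE 0.32), both with overlapping groups. PHRF1 had -0.094 without control replicate 2 and -0.60 without control replicate 3. CDHR5 had 0.13 without control replicate 3, where its signal was 54.5, against 150.4 to 180.9 on the other arrays. IRF7, a transcription factor of the interferon response that lies in the same region, had 0.081 (SE 0.27).

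**Figure D3:**
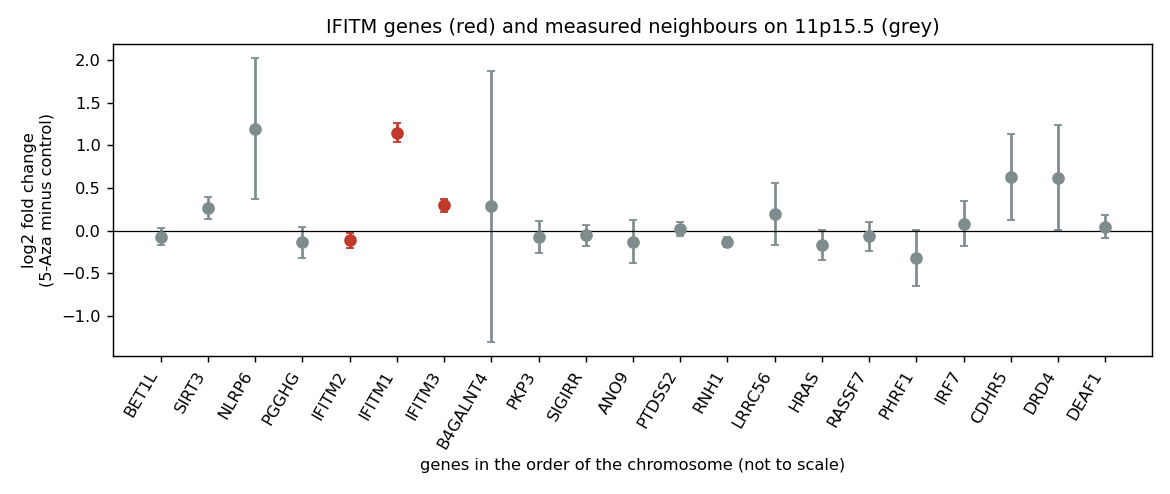
Log2 fold change (5-Aza minus control, points, with SE as bars, n = 3 arrays per group) of IFITM2, IFITM1 and IFITM3 (red) and of 18 measured neighbours (grey), in their order along chromosome 11 and not to scale. IFITM1 (1.15) stands out from the genes with small errors beside it. The neighbours with high values, such as NLRP6 (1.19, SE 0.83), have wide errors. All signals of NLRP6 were under 42 and thus at background.

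Other members of the CD225 family were measured with 11 probe sets, 3 of which carry a second symbol beside PRRT1. IFITM10 differed between its probe sets. With 1564573_at it had 111.3, 92.2 and 62.5 in 5-Aza treated cells, against 143.1, 213.3 and 186.5 in control cells, so the treated arrays were lower without overlap (log2 fold change -1.04, SE 0.30, adjusted p = 0.565, limma). This probe set passed the unadjusted threshold as lower, as 1.05% of all probe sets did. With 227863_at, the IFITM10 probe set with the highest signal, it had 240.1, 201.8 and 184.2 in 5-Aza treated cells, against 186.3, 200.6 and 198.7 in control cells, with overlapping groups and a log2 fold change of 0.088 (SE 0.12). The third, 227886_at, was under 42 on all arrays. Of the 6 family genes with a chosen probe set, 1 passed the unadjusted threshold as lower (16.7%, where 0.915% of all genes were) and 0 as higher. This was SYNDIG1L, with 8.6, 13.3 and 10 in 5-Aza treated cells, against 47.4, 18 and 27.5 in control cells. Only control replicate 1 was above 42 there, so its log2 fold change of -1.37 (SE 0.43) lies mostly within the background. TMEM91 (0.094, SE 0.14), PRRT2 (0.32, SE 0.29), SYNDIG1 (0.015, SE 0.83) and TRARG1 (-0.40, SE 1.26) had overlapping groups. The PRRT1 probe sets had log2 fold changes of -0.39, -0.53 and -1.04 with overlapping groups.

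Of 12 measured partners and modifiers of the IFITM proteins, 0 passed an unadjusted p under 0.025 or under 0.05 (limma). Of all genes, 3.01% were higher and 0.915% lower at 0.025, and 5.33% and 1.89% at 0.05. The median log2 fold change of the 12 was 0.0040 (-0.18 after median centring). NEDD4, a ubiquitin ligase that targets IFITM3 for breakdown, had 735.9, 717.9 and 710.4 in 5-Aza treated cells, against 570.2, 504.5 and 644.8 in control cells. Its log2 fold change was 0.34 (SE 0.10, adjusted p = 0.731, limma). Its treated arrays were higher without overlap (1 of 12, 8.33%, where 9.92% of all genes were). OSBP, a cholesterol carrier whose partner VAPA is bound by IFITM3, had -0.13 (SE 0.053), with the treated arrays lower without overlap (6.94% of all genes). Thus a higher and a lower gene stood beside 10 with overlapping groups, near the shares over all genes.

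The 5 genes whose signals followed the mean log2 signal of the 3 single-symbol IFITM probe sets most closely were APOBEC3B, EIF1AX, IFNGR1, GNAZ and GATM. Their Pearson correlations were 0.998, 0.993, 0.992, 0.988 and 0.988 over the 6 arrays, the highest among 13513 genes with signals above 42. They share the 6 arrays and the difference between both groups, and with 6 points many genes come close to such values. For the deviations from the group means, the correlations were 0.967, 0.973, 0.867, 0.876 and 0.807. The 5 genes were picked by the correlation over the 6 arrays, which includes these deviations, so this is no separate check. APOBEC3B, a cytidine deaminase that mutates viral DNA, had 1807.3, 1711.8 and 2002.2 in 5-Aza treated cells, against 1060.8, 1233.5 and 1101.5 in control cells (log2 fold change 0.70, SE 0.093). As for IFITM1, treated replicate 3 was the highest and control replicate 2 the highest control, an order that the selection favours. IFITM2 and IFITM1 had a correlation of -0.49 over the 6 arrays and IFITM3 and IFITM1 of 0.90, so the mean joins members that did not move alike.

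Markers of other cell types had no adjusted call. The 9 leukocyte markers had a median log2 fold change of 0.67 (0.38 without control replicate 2 and 0.27 with a constant of 16), higher than that of the effectors. Their summed signal was 28720 to 32230 in 5-Aza treated and 20210 to 30300 in control cells, nearly all of it from LYZ. CD3E (1.34, SE 0.74) and ITGAM (0.82, SE 0.46), which passed no threshold with all arrays, had 0.68 and 0.38 without control replicate 2. Without control replicate 1 CD3E had 1.91 and passed the unadjusted threshold as higher. Of 9 fibroblast and endothelial markers 3 were above 42, with a median log2 fold change of 0.58 (0.44 without control replicate 2, 0.34 without 5-Aza replicate 1 and 0.36 after quantile normalization) and sums of 753.4 to 784.6 in 5-Aza treated and 528.6 to 689.5 in control cells. VWF passed the unadjusted threshold as higher (1 of 9, 11.1%, where 3.01% of all genes were), with 24.5, 68.9 and 72.2 in 5-Aza treated cells, against 11.2, 20.4 and 7.7 in control cells. All its control signals and 1 treated signal were under 42. The call ended with quantile normalization and median centring, and without 5-Aza replicate 2, 5-Aza replicate 3, control replicate 1 or control replicate 3. The colon epithelial markers had a median log2 fold change of -0.023 (0.024 without control replicate 2, -0.21 after median centring) and 0 of 9 passed the unadjusted threshold. CDX2 had -1.32 (SE 0.89) and KRT19 -0.35 (SE 0.27). CDX2 had -0.61 without 5-Aza replicate 3 and -2.12 without 5-Aza replicate 1, where it passed the unadjusted threshold as lower. KRT19 had -0.077 without control replicate 2. The part of these markers in the IFITM results was not tested.

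**Figure D4:**
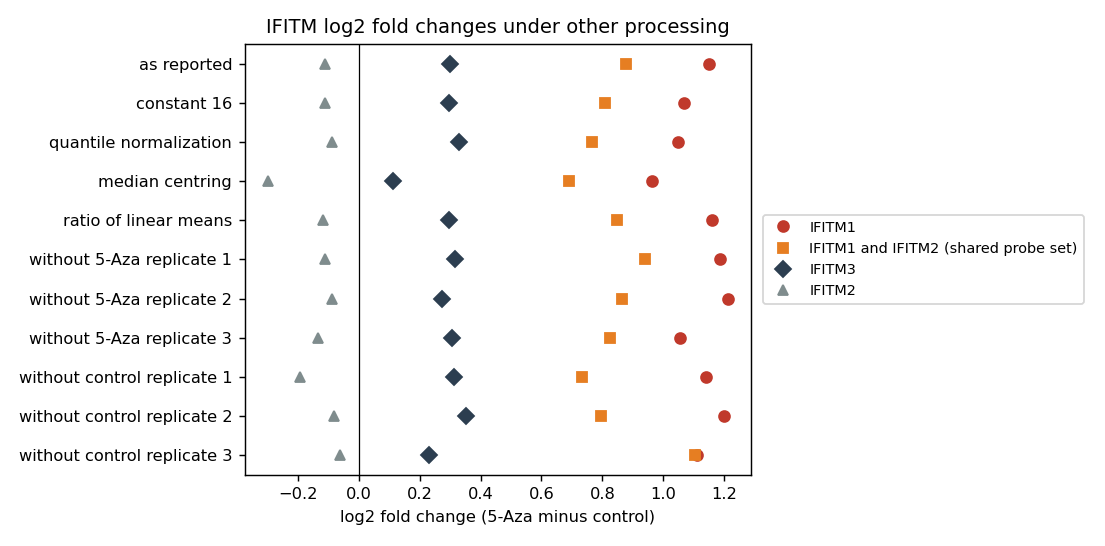
Log2 fold change (5-Aza minus control, x axis) of the 4 IFITM probe sets as reported and under other settings (rows), including the removal of each array in turn. IFITM1 lies between 0.96 and 1.21 in every row, IFITM3 between 0.11 and 0.35 and IFITM2 between -0.30 and -0.061.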

How the data were processed

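Signals were compared on 6 HGU133 Plus 2.0 arrays, 3 of 5-Aza treated and 3 of control HT-29 cells, grouped by the labels. The deposited table holds linear intensity values, 1 signal for each probe set and array, which the authors made with the affy package (version, background correction and summarization not given in the sources used here) and which the values show to be scaled to a trimmed mean of 500. Precision is limited by the number of arrays.

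Here 1 was added, the log2 was taken, 61 control probe sets were left out, and limma 3.58.1 in R 4.3.3 was fitted with the group as its only term, with Benjamini-Hochberg adjustment over all 54614 probe sets. The fit was tested on simulated data. Symbols came from the platform annotation (41097 probe sets with 1 symbol, 1801 with several, 11777 with none). List genes were matched through RefSeq gene IDs and represented by the single-symbol probe set with the highest mean signal, without _x_at where possible (19777 genes). Promoters are those of RefSeq, GRCh38.p14.

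The members and lists were chosen with earlier results of these data known. The text names all probe sets of the members and of the CD225 family, up to 4 genes per list at an unadjusted p under 0.025 or else the 2 with the largest change above background, the direct neighbours, and the 5 genes most correlated with the members, with exceptions stated. Alternatives were a constant of 16, quantile normalization, median centring, trend and robust variance, a SAM-type statistic (20 relabellings, after the test that the methods name), a filter at the median, the replicate number as a block, the ratio of means, averaging every probe set annotated to a gene, and leaving out each array. No array was a copy of another (r of 0.926 to 0.934 between arrays).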

Additional observations from a re-analysis of the deposited data

How the results depend on the processing

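IFITM1, IFITM3 and the shared probe set had positive log2 fold changes and IFITM2 a negative one under each alternative run for them (all but the averaging of probe sets). After median centring they were 0.96 for IFITM1, 0.11 for IFITM3 and -0.30 for IFITM2, moves larger than the spread between replicates. Without 1 array they were 1.05 to 1.21 for IFITM1, 0.73 to 1.10 for the shared probe set, 0.23 to 0.35 for IFITM3 and -0.19 to -0.061 for IFITM2. The count of 2 higher effectors was 0 after median centring, 1 after quantile normalization, 8 with trend and robust variance, 1 with the SAM-type statistic, 4 with only probe sets above the median, 1 when every probe set annotated to a gene was averaged, and 0 to 3 without 1 array (0 without 5-Aza replicates 2 or 3 or control replicate 1, 1 without control replicate 2). The count of lower effectors was 0 throughout. Over all probe sets, 926 were higher and 1451 lower after median centring, 911 lower after quantile normalization and 909 with trend and robust variance. An adjusted p under 0.05 was reached by 23 with trend and robust variance and by 9 with the filter, which tests fewer probe sets. Without 1 array 1258 to 1871 were higher, 565 to 714 lower and 0 passed the adjusted threshold. Medians turned after centring to -0.073 for receptors and signalling, -0.18 for IFITM partners and -0.041 for endosomal and membrane factors. That of the other CD225 family members turned from 0.052 to -0.135 after centring and to -0.095 after quantile normalization. Without 1 array it ran from -0.175 to 0.251. Other causes were not tested.

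The labels number the arrays of both groups, but same-numbered arrays did not deviate together (correlations of -0.012, 0.0020 and 0.010 over all probe sets). With the replicate number as a block, 0 effectors passed the unadjusted threshold, and 1406 probe sets were higher and 508 lower.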

Other observations

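Other endosomal and membrane factors that play a part in virus infection were measured with 10 genes. None passed an unadjusted p under 0.025 (limma), and before adjustment 1 was higher with p under 0.05 (10%, where 5.33% of all genes were) and 0 lower. This was NCOA7, of which a short form is induced by interferon and acts on endosomes. It had signals of 1515, 1697.7 and 1499.4 in 5-Aza treated cells, against 1312.6, 1119.5 and 1016.6 in control cells, so the treated arrays were higher without overlap (log2 fold change 0.46, SE 0.12, adjusted p = 0.663, limma). It passed the unadjusted threshold of 0.025 with trend and robust variance and with only probe sets above the median, but was over 0.05 with median centring (log2 fold change 0.27), the replicate block and the SAM-type statistic, and without any single array other than control replicate 1. CTSB, a protease of endosomes that some viruses use for entry, had 0.25 (SE 0.18) with overlapping groups. The median of the 10 genes was 0.15 (-0.041 after median centring). The treated arrays were higher without overlap for 4 of them (40%, where 9.92% of all genes were). Besides NCOA7 these were TMEM41B (log2 fold change 0.15, SE 0.031), CTSL (0.14, SE 0.046) and RAB7A (0.13, SE 0.047). These differences were small and passed no threshold. Whether their groups stay apart after median centring was not tested.

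The motif of 2 GAAA blocks with 2 bases between them was found within 250 bases before to 50 bases after the start in 23 of the 32 interferon-stimulated effectors with a promoter in the RefSeq table, where 3.57% of all promoters hold it. The list had been written from known interferon responses, so this describes the list.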
